A study of Mus musculus with 6 samples.

Results

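The genes described here encode the neuropeptide system of the hippocampus. They comprise peptide precursors, the granins and enzymes that pack and cut them, and the receptors that answer them. The genes were taken from a list of 37 symbols, each represented by the probe set with 1 gene symbol and the highest mean over all 6 arrays. A tested probe set was present for 35 of the 37, among 18193 genes in all, namely 12 peptide precursors, 9 granins and processing genes and 14 receptors. Pthlh and Pcsk2 were not analysed here.

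Hippocampal RNA of mice without any stated treatment was hybridised to Affymetrix whole-genome mouse arrays, with 1 array for each sample. The 3 L26 samples came from adult males homozygous for the daDREAM transgene, a dominant active form of the repressor DREAM (gene Kcnip3), and the 3 wild type samples from littermates without it. Both groups had the C57B6xCBA background. L26 is 1 transgenic line, and the promoter that drives the transgene is not given in the sources used here. The series design text calls the 3 samples of each group independent biological replicates.

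Neuropeptides are made as larger precursors, sorted with granins into dense core vesicles, cut at pairs of basic residues by the prohormone convertases (Pcsk1, Pcsk2), trimmed by carboxypeptidase E (Cpe) and often amidated by Pam. They are released on strong or repeated firing and act on G protein-coupled receptors, many of them in hippocampal interneurons or on their targets. Some of these genes carry a cAMP response element (CRE), the site bound by CREB, and DREAM binds a downstream regulatory element (DRE) whose core holds the letters GTCA.

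Promoters were looked at because both site types have been described for peptide genes. RefSeq promoters (GRCm38.p6) were found for 32 of the 37 listed genes, 3 of them with several starts, and the 250 bases before each start were searched on both strands. The full CRE, TGACGTCA, was present in 5 of the 35 promoters of these 32 genes (14.3%), against 1.55% of all 32851 promoters. Its first base lay 78 bases before the start in Pcsk1, 68 in Scg2, 72 in Chgb, 112 in Cartpt and 58 in Sstr2. The 5 sites follow with 20 bases on each side, 5′ to 3′ along the gene's strand, the CRE in capitals.
Pcsk1, chr13:75089759-75089806, plus strand: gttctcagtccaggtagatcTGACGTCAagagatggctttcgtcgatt
Scg2, chr1:79440067-79440114, minus strand: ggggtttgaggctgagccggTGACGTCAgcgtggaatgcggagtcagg
Chgb, chr2:132781550-132781597, plus strand: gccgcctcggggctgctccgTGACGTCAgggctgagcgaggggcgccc
Cartpt, chr13:99900768-99900815, minus strand: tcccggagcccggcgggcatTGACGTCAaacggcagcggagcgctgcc
Sstr2, chr11:113619249-113619296, plus strand: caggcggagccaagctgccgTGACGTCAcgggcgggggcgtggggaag
The shorter site TGACG, which is part of the full CRE, was present in 57.1% of the promoters of these genes and in 17.8% of all promoters. The DRE core GTCA, also part of the CRE, was present in 85.7% of the promoters of these genes and in 80.2% of all promoters. Of the 5 genes with a full CRE, Pcsk1 alone passed the test described next, and the values of Scg2, Chgb, Cartpt and Sstr2 differed by 0.05, 0.01, 0.09 and 0.04 on the log2 scale.

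Of the 35 genes tested, 6 differed between L26 and wild type hippocampus at an adjusted p below 0.05 (17.1%), where 5.19% of all genes did. The list was chosen with earlier results of these data known, so its shares are described beside those of all genes and not tested. Of 92 further genes of the peptide system 2.17% passed. Cort, Tac1, Npy2r and Sstr1 rose in L26 (2.63% of all genes rose), and Pcsk1 and Cckbr fell (2.57% of all genes fell). The 3 L26 values lay all above or all below the 3 wild type values for 15 of the 35 genes (42.9%), against 24.1% of all genes, 7 of them higher and 8 lower (13% and 11% of all genes). An unadjusted p below 0.05 was found for 15 of the 35, and for 20.3% of all genes. Without L26 replicate 2, and likewise without L26 replicate 3, 3 of the 35 passed (2.2% and 2.31% of all genes). The values are log2 expression values, so a difference of 1 is a doubling, and p-values come from limma with Benjamini-Hochberg adjustment over 18193 genes. After centring each array on its median the split of calls changed to 3 higher and 4 lower, and that of all genes to 382 higher and 690 lower, against 478 higher and 467 lower as deposited. The median difference over the 35 genes was 0, with a range from -0.76 to 0.64, and over all genes it was 0.01. The median size of the difference, without its sign, was 0.137 for these genes and 0.0733 for all genes. On the same arrays 10 of 12 immediate early genes fell, and 10 of 11 oligodendrocyte and 6 of 10 vascular markers rose, and their part in the values of the peptide genes was not tested.

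**Figure D1:**
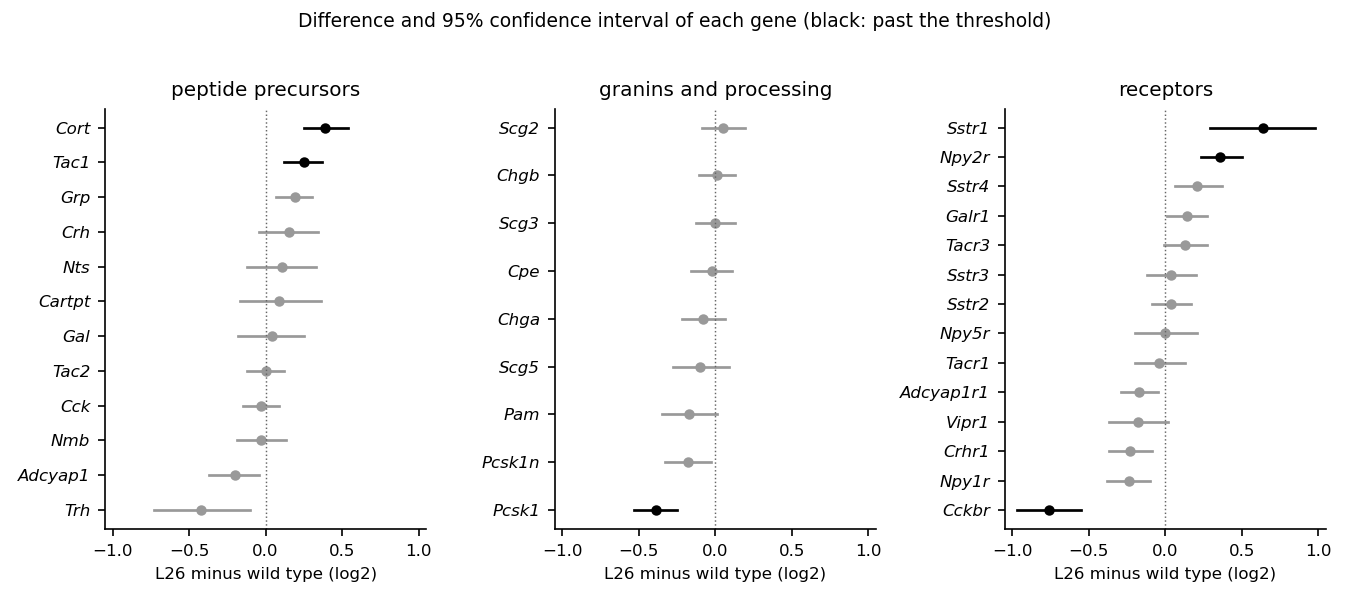
Difference in log2 expression, L26 minus wild type, with its 95% confidence interval from limma, for 12 peptide precursors, 9 granins and processing genes and 14 receptors. Black points passed an adjusted p of 0.05, and the widest spread of differences is seen among the receptors, from -0.76 for Cckbr to 0.64 for Sstr1.

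The promoters of 5 of the 6 genes that passed are printed as the sequences next to the starts of the genes that differed. Each run is the 250 bases before the start, 5′ to 3′, with the DRE core GTCA on either strand (GTCA or TGAC) in capitals, neighbouring or overlapping cores running together.
Cckbr, chr7:105425481-105425730, plus strand: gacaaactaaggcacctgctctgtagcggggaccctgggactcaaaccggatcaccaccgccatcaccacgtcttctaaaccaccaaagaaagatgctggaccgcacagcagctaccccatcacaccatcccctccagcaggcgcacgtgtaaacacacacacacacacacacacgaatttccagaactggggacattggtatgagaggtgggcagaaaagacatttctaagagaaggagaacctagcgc
Pcsk1, chr13:75089607-75089856, plus strand: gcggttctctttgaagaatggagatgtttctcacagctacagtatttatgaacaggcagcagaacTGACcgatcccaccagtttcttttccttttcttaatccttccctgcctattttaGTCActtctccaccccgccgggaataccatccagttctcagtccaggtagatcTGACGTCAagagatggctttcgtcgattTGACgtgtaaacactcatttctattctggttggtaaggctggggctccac
Cort, chr4:149126764-149127013, minus strand: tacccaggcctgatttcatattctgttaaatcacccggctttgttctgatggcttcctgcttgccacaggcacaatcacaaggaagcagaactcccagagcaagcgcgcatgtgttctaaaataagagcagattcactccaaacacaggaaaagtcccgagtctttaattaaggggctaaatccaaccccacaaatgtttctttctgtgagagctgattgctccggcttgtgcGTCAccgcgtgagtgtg
Tac1, chr6:7554811-7555060, plus strand: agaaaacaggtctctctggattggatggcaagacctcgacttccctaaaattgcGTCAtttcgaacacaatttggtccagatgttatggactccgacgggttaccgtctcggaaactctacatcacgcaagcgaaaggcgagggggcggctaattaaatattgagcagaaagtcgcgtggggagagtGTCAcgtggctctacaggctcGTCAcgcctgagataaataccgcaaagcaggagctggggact
Npy2r, chr3:82548086-82548335, minus strand: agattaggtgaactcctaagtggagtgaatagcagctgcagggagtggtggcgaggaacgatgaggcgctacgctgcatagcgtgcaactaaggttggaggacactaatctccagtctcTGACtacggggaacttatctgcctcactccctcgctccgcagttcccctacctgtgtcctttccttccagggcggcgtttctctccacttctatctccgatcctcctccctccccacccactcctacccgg
In these letters Cckbr held no GTCA, Cort and Npy2r held 1 each, Tac1 held 3 and Pcsk1 held 5, of which 2 lie side by side within its CRE. Of these genes Cckbr and Pcsk1 fell, and Cort, Npy2r and Tac1 rose. GTCA was present in 80.2% of all promoters, and bases after the start were not searched. The counts therefore do not show whether a gene has a DRE, and their relation to the direction was not tested.

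Among the peptide precursors 2 of 12 rose (16.7%, against 2.63% of all genes), none fell and 10 did not pass with limma, and 5 had an unadjusted p below 0.05 (20.3% of all genes did). None passed without L26 replicate 3, where 2.31% of all genes did, and 1 without wild type replicate 1 or 2 or L26 replicate 1 or 2, where 2.2% to 3.83% of all genes did. The mean of the 12 genes lay between 8.41 and 8.47 in L26 and between 8.35 and 8.43 in wild type, so the groups overlapped. Cort encodes cortistatin, a relative of somatostatin made by some inhibitory neurons. It had 8.85, 8.75 and 8.87 in the 3 L26 arrays, against 8.32, 8.51 and 8.46 in wild type. All L26 arrays were above all wild type arrays, and the difference of 0.39 (SE 0.07, adjusted p = 0.0114) is a 1.31-fold higher level. Without L26 replicate 3 the adjusted p was 0.0564. In the RefSeq gene table Cort borders Cenps, a kinetochore gene, whose own probe set had a difference of -0.15 (SE 0.11, adjusted p = 0.533).

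Tac1, the precursor of substance P and neurokinin A, had 10.09, 10.03 and 10.10 in L26 and 9.76, 9.86 and 9.86 in wild type. The L26 values lay within 0.07 of each other and above every wild type value. The difference was 0.25 (SE 0.05, adjusted p = 0.0352), or 1.19-fold. The call was lost without any 1 of the 6 arrays, with adjusted p-values from 0.0662 to 0.123, and the second Tac1 probe set, at a mean of 5.58 in L26 and 5.54 in wild type, differed by 0.04.

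**Figure D2:**
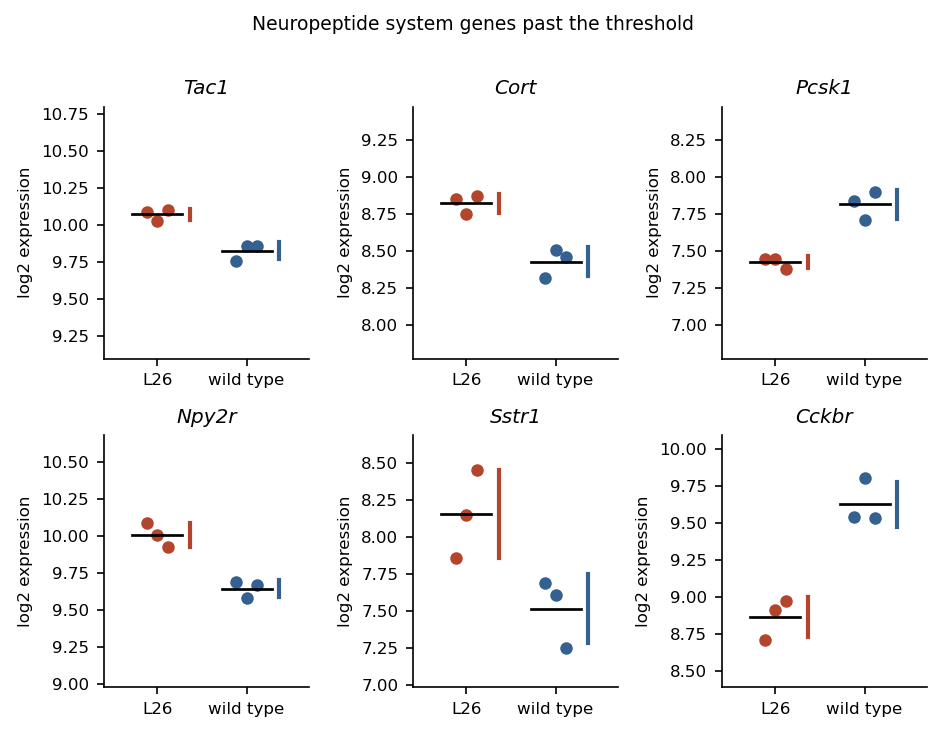
Log2 expression of the 6 neuropeptide system genes that passed, 1 point per array (replicates 1 to 3 from left to right), with the mean as a black line and 1 SD on each side as a coloured bar. Every panel spans the same range of log2 units, and in each the 3 L26 arrays lie on 1 side of the 3 wild type arrays.

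Grp, Adcyap1 and Trh had groups that did not overlap but missed the threshold. Grp, the precursor of gastrin-releasing peptide, had 10.65, 10.65 and 10.59 in L26 and 10.45, 10.40 and 10.48 in wild type, a difference of 0.19 (SE 0.05, adjusted p = 0.0743). Adcyap1, which encodes the peptide PACAP, had 7.45, 7.47 and 7.46 in L26 and 7.62, 7.82 and 7.55 in wild type, a difference of -0.20 (SE 0.07, adjusted p = 0.152). The Grp arrays spread by 0.06 in L26 and 0.08 in wild type, less than the difference, while the wild type arrays of Adcyap1 spread by 0.27, more than the difference.

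Trh, the precursor of thyrotropin-releasing hormone, had 7.11, 7.08 and 7.05 in L26 and 7.78, 7.59 and 7.12 in wild type. The L26 arrays were nearly equal, while wild type replicate 3 lay at the L26 level and apart from its own group. The difference was -0.42 (SE 0.14, adjusted p = 0.133), and without wild type replicate 3 it was -0.61 with an adjusted p of 0.00679.

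The other 7 peptide precursors had overlapping groups. Cck, the cholecystokinin precursor, which both pyramidal cells and a class of basket cells make, had 12.72, 12.78 and 12.79 in L26 and 12.74, 12.81 and 12.83 in wild type. Its 95% interval ran from -0.15 to 0.09. Tac2, the neurokinin B precursor, had a difference of 0 (interval -0.12 to 0.12) and Nmb, the neuromedin B precursor, one of -0.03 (-0.19 to 0.13). The stress peptide gene Crh had 0.15 (-0.04 to 0.34), the neurotensin precursor gene Nts 0.11 (-0.12 to 0.33), Cartpt 0.09 (-0.17 to 0.36) and the galanin gene Gal 0.04 (-0.18 to 0.25). For Crh the L26 arrays spread more, from 6.68 to 7.03, than the wild type arrays, from 6.67 to 6.75.

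Among granins and processing genes 1 of 9 fell (11.1%, against 2.57% of all genes), none rose and 8 did not pass with limma. An unadjusted p below 0.05 was found for 2 (20.3% of all genes), and the groups did not overlap for 2 (22.2%, against 24.1% of all genes), both shares near those of all genes. Pcsk1 encodes prohormone convertase 1/3, which makes the first cuts in many precursors. It had 7.45, 7.45 and 7.38 in L26 and 7.84, 7.71 and 7.90 in wild type. No L26 array reached the lowest wild type array. The difference was -0.39 (SE 0.06, adjusted p = 0.00952), a 1.31-fold lower level, and it passed in all 13 alternative fits, with adjusted p-values from 0.00637 to 0.0484. Pcsk1 is itself known to respond to cAMP and activity, and the mean of the immediate early genes was lower in L26 by 1 log2 unit on these arrays, a relation that was not tested.

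Pcsk1n encodes proSAAS, a binding partner and inhibitor of this convertase. It had 12.17, 12.25 and 12.36 in L26 and 12.47, 12.49 and 12.36 in wild type, so the groups touched at 12.36, and its difference of -0.18 (SE 0.07, adjusted p = 0.163) did not pass. Scg5, which encodes the 7B2 chaperone of the second convertase, had -0.10 (interval -0.28 to 0.09). Pam, the amidating enzyme gene, had 6.34, 6.27 and 6.26 in L26 and 6.35, 6.38 and 6.64 in wild type. Its groups were 0.01 apart at their nearest values, and the difference of -0.17 (SE 0.08, adjusted p = 0.282) did not pass.

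Cpe, which trims basic residues after the cut, had 14.42, 14.48 and 14.36 in L26 and 14.53, 14.43 and 14.37 in wild type, with an interval from -0.16 to 0.11. Its second probe set, at 7.09 in L26 and 6.86 in wild type, differed by 0.23 (interval 0.02 to 0.44) with groups that did not overlap. That probe set did not pass (limma adjusted p = 0.224 over probe sets). The granins, acidic proteins of the vesicle core, gave narrow intervals around 0. Chgb had a difference of 0.01 (-0.11 to 0.13), Scg2 0.05 (-0.09 to 0.19), Scg3 0 (-0.13 to 0.13) and Chga -0.08 (-0.22 to 0.06). The mean of the 9 genes lay between 11.12 and 11.19 in L26 and between 11.25 and 11.26 in wild type, with a median difference of -0.08, against 0.01 over all genes. Without Pcsk1 the mean lay between 11.58 and 11.65 in L26 and between 11.66 and 11.70 in wild type.

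Both the lowest and the highest difference of the 35 genes were those of receptors. Of 14 tested, 3 passed (21.4%, against 5.19% of all genes), of which 2 rose and 1 fell, and 11 did not pass. Without L26 replicate 2 only 1 passed, where 2.2% of all genes did. The groups did not overlap for 8 (57.1%, against 24.1% of all genes). The mean of the 14 genes overlapped, at 8.52 to 8.56 in L26 and 8.53 to 8.56 in wild type. Cckbr, the main cholecystokinin receptor of the brain, had 8.71, 8.91 and 8.97 in L26 and 9.54, 9.80 and 9.53 in wild type. The highest L26 array lay 0.56 below the lowest wild type array, while the arrays spread by 0.26 in L26 and 0.27 in wild type. The difference was -0.76 (SE 0.09, adjusted p = 0.00297), a 1.69-fold lower level and the 51st lowest among 18193 genes. Its second probe set had a difference of -0.59 (SE 0.08, adjusted p = 0.00327 over probe sets). Cckbr passed in all 13 alternative fits, with adjusted p-values from 0.000228 to 0.0132. Cckbr is also a gene of the neighbouring cortex. Of 8 cortical and subicular markers 3 fell on these arrays (2.57% of all genes fell), and 3 had positive differences that did not pass. The part of such tissue in the value of Cckbr was not tested. Within each array the log2 value of Cckbr minus that of its ligand gene Cck was -4.01, -3.87 and -3.82 in L26 and -3.2, -3.01 and -3.30 in wild type. The exact permutation p was 0.1 (0.15 adjusted over 3 such pairs), the smallest this design allows, so the test could not pass. Cck itself differed by -0.03, so this ratio mostly restates Cckbr.

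Somatostatin and cortistatin share their receptors. Sstr1 had 7.86, 8.15 and 8.45 in L26 and 7.69, 7.61 and 7.25 in wild type. The arrays of both groups spread widely, and L26 replicate 1 lay 0.17 above the highest wild type array. The difference was 0.64 (SE 0.15, adjusted p = 0.0493), a 1.55-fold higher level and the 42nd highest of all genes. The call was kept without L26 replicate 1 (adjusted p = 0.0313) and lost without any 1 of the other 5 arrays, with adjusted p-values up to 0.143. Over probe sets it missed the threshold (adjusted p = 0.0532).

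Sstr4 had 10.99, 11.07 and 10.95 in L26 and 10.71, 10.74 and 10.92 in wild type, a difference of 0.21 (SE 0.07, adjusted p = 0.117). Its second probe set differed by 0.35 (SE 0.11, adjusted p = 0.115 over probe sets), and on both the groups did not overlap. Sstr2 and Sstr3 each had a difference of 0.04, with intervals of -0.09 to 0.17 and -0.12 to 0.2. The within-array difference of Sstr1 and Sstr2 was -1.01, -0.63 and -0.35 in L26 and -1.01, -1.2 and -1.57 in wild type (exact permutation p = 0.2, also 0.2 adjusted over the 3 pairs). It mostly restates Sstr1, and in this design the test could not pass.

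The 3 neuropeptide Y receptor genes gave a rise, a negative difference short of the threshold and a value at 0. Npy2r, which sits mostly on axon terminals, had 10.09, 10.01 and 9.93 in L26 and 9.69, 9.58 and 9.67 in wild type. All L26 arrays were higher, by 0.36 on average (SE 0.06, adjusted p = 0.0116), a 1.29-fold difference. Without L26 replicate 2 the adjusted p was 0.0505. Npy1r, a receptor found mostly on cell bodies and dendrites, had 8.61, 8.81 and 8.73 in L26 and 8.95, 8.97 and 8.95 in wild type, a difference of -0.24 (SE 0.06) that missed the threshold (adjusted p = 0.059) and passed in 4 of 13 alternative fits. Its second probe set, at 5.32 in L26 and 5.24 in wild type, differed by 0.07. Npy5r, the neighbour of Npy1r on chromosome 8, had a difference of 0 (interval -0.20 to 0.21).

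The log2 value of Npy2r minus that of Npy1r within each array was 1.48, 1.2 and 1.2 in L26 and 0.74, 0.61 and 0.72 in wild type. The pair was set side by side with the values of both genes known, and its ratio restates them. The exact permutation p was 0.1 (adjusted 0.15), the smallest that 3 arrays against 3 can give, so the test could not pass.

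**Figure D3:**
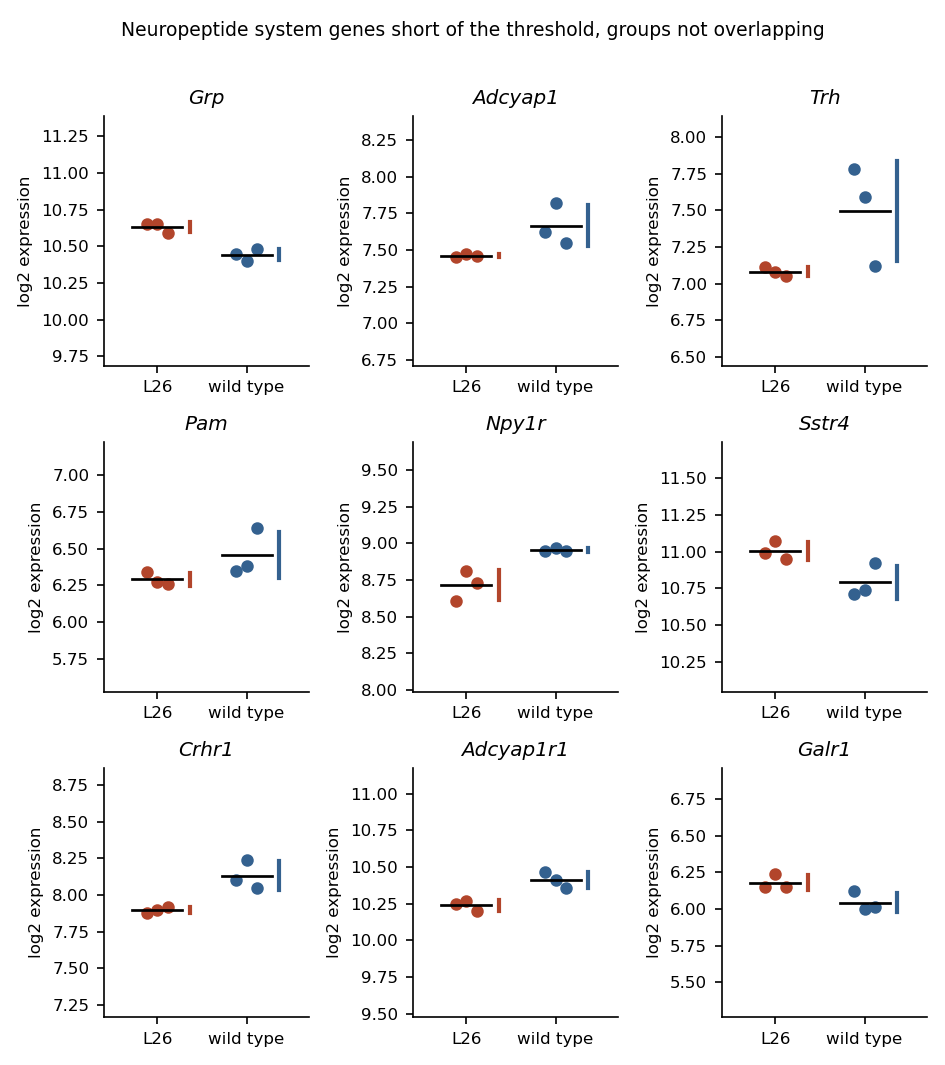
Log2 expression of the 9 neuropeptide system genes that missed the threshold while their groups did not overlap, drawn like the genes that passed. The gap between the groups is 0.01 for both Pam and Trh, and Trh has 1 wild type array near the L26 level.

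The receptor genes Crhr1, Adcyap1r1 and Vipr1 did not pass. Crhr1, the main receptor of corticotropin-releasing hormone in forebrain, had 7.88, 7.90 and 7.92 in L26 and 8.10, 8.24 and 8.05 in wild type. Its 2 probe sets gave -0.23 (adjusted p = 0.0673 over genes) and -0.25 (adjusted p = 0.0739 over probe sets), neither with overlapping groups. The first passed in 3 of 13 alternative fits. Adcyap1r1, the PACAP receptor gene, had 10.25, 10.27 and 10.20 in L26 and 10.47, 10.41 and 10.36 in wild type. Its difference of -0.17 (SE 0.05, adjusted p = 0.104) was not seen on its 2 other probe sets (0.07 and 0.03). Vipr1, a receptor for both VIP and PACAP, had -0.18 (interval -0.37 to 0.02) with overlapping groups, and 0.05 on its other probe set.

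The galanin receptor gene Galr1 had 6.15, 6.24 and 6.15 in L26 and 6.12, 6.0 and 6.01 in wild type, 0.03 apart at the nearest values. Its difference was 0.14 (SE 0.06, adjusted p = 0.222), and its 2 other probe sets had -0.11 and 0.10. The substance P receptor gene Tacr1 had -0.04 (interval -0.20 to 0.13) while Tac1 was higher. Tacr3, the neurokinin B receptor gene, had 0.13 (-0.01 to 0.27) on a probe set whose name ends in _x_at, open to related transcripts, and -0.04 and -0.11 on the other 2.

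Ligand and receptor genes gave different pictures pair by pair. Cckbr fell while the interval of Cck held 0, and Tac1 rose while that of Tacr1 held 0. Cort and Sstr1 both rose, while Sstr2, Sstr3 and Sstr4 did not pass. The Sstr1 call was kept in 1 of the 6 fits with 1 array left out, and the Tac1 call in none of them. Gal and Galr1 (0.04 and 0.14) did not pass, nor did Tac2 and Tacr3 (0 and 0.13). Adcyap1 and Adcyap1r1 both had negative differences that did not pass. Crh had 0.15 and its receptor gene Crhr1 -0.23, neither of which passed. These pairs were read side by side, and no test was made of their joint movement.

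Several probe sets were present for 13 of the 35 genes. Of their 16 additional probe sets, 1 passed over probe sets (the second of Cckbr), and 10 had a sign opposite to the probe set used. Over all probe sets 3.92% passed. Cckbr, Crhr1 and Sstr4 were the genes whose second probe set also separated the groups in the same direction. The second probe set of Cpe (0.23) and 1 of Galr1 (-0.11) separated the groups with a sign opposite to the probe set used.

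**Figure D4:**
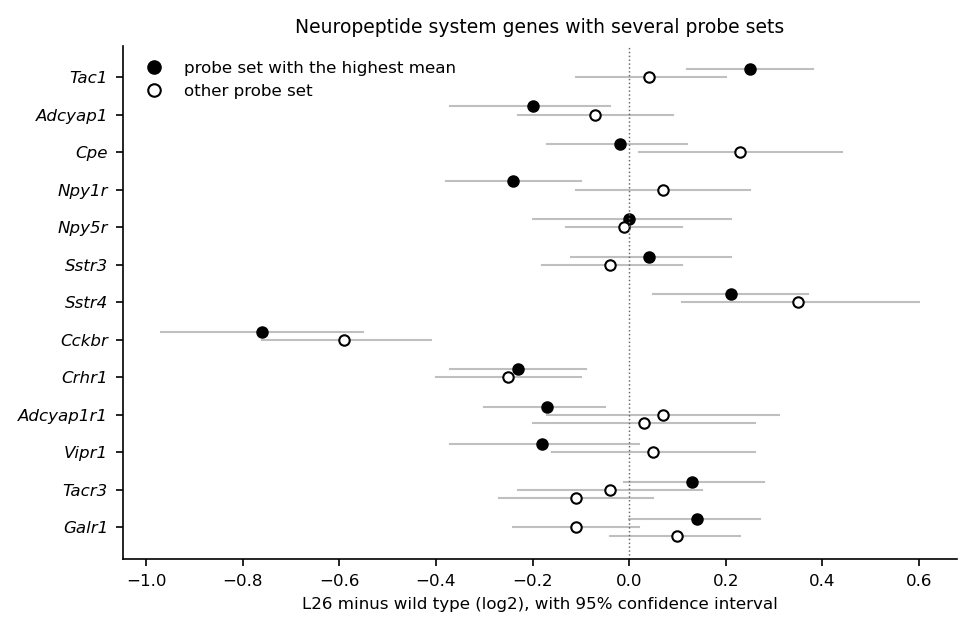
Differences in log2 expression, L26 minus wild type, of every probe set of the 13 genes with several, with 95% confidence intervals. Filled points are the probe sets used, and open points the additional ones, which for Cckbr (-0.59), Crhr1 (-0.25) and Sstr4 (0.35) lie on the same side of 0 with intervals that leave out 0.

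Beyond the 35 genes, 92 further genes of the peptide system were tested. Of these, 2 passed (2.17%, against 5.19% of all genes). Groups did not overlap for 20 (21.7%, near the 24.1% of all genes). Without the dimmest probe sets 5 of 67 passed, where 8.57% of all genes did. None of 30 further peptide precursors and none of 27 further processing and vesicle genes passed with limma. An unadjusted p below 0.05 was found for 5 and 7 of them (20.3% of all genes). Of 35 further receptors 1 rose and 1 fell (5.71%, near the 5.19% of all genes). Oxtr, the oxytocin receptor gene, had 7.57, 7.57 and 7.54 in L26 and 7.17, 7.02 and 7.39 in wild type, a difference of 0.37 (SE 0.09, adjusted p = 0.0457). Nmbr, the neuromedin B receptor gene, had 7.21, 7.10 and 7.13 in L26 and 7.42, 7.47 and 7.64 in wild type, a difference of -0.36 (SE 0.07, adjusted p = 0.0193). On both probe sets the groups did not overlap. None of the 92 passed in limma without L26 replicate 2 or without L26 replicate 3, where 2.2% and 2.31% of all genes did. Without wild type replicate 2, 1 of the 92 passed, where 2.86% of all genes did.

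Other transcripts differed on the same arrays, where 2.63% of all genes rose and 2.57% fell. Of 12 immediate early genes, which neurons switch on with activity, 10 fell in L26, and their mean per array ran from 8.56 to 8.73 in L26 and from 9.34 to 9.85 in wild type. Of 11 oligodendrocyte markers 10 rose (means 11.45 to 11.73 in L26 and 11.16 to 11.25 in wild type), as did 6 of 10 vascular markers (8.92 to 9.02 in L26 and 8.53 to 8.59 in wild type). Of 8 cortical and subicular markers 3 fell (9.15 to 9.19 in L26 and 9.38 to 9.43 in wild type), and of 6 striatal markers 2 fell (8.12 to 8.38 in L26 and 8.38 to 8.44 in wild type). Of 9 interneuron markers Pvalb and Reln fell and 7 did not pass, with means of 9.59 to 9.63 in L26 and 9.66 to 9.70 in wild type. Their median difference was -0.023, with 3 positive and 6 negative, and Htr3a (0.21, not past the threshold) was higher in L26 without overlap. Cort, itself an interneuron transcript, rose. Thalamic and habenular markers, looked at because the habenula also makes Tac1, had means of 8.11 to 8.20 in both groups, with 1 of 11 higher (Zic1, by 0.96) and 3 lower. Without Zic1 their means were 7.89 to 7.94 in L26 and 7.96 to 8.03 in wild type. Pyramidal and granule cell markers had 10.93 on each L26 array and 10.81 to 10.87 in wild type, with Grik4 the 1 of 10 that passed. General neuronal markers had 12.86 to 12.89 in L26 and 12.89 to 12.94 in wild type, with none of 10 past the threshold in limma and 1 at an unadjusted p below 0.05. Of 9 astrocyte markers 1 fell, and of 8 microglia markers 2 rose and 1 fell. In such tissue samples fewer cells of a type and less RNA per cell cannot be told apart.

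**Figure D5:**
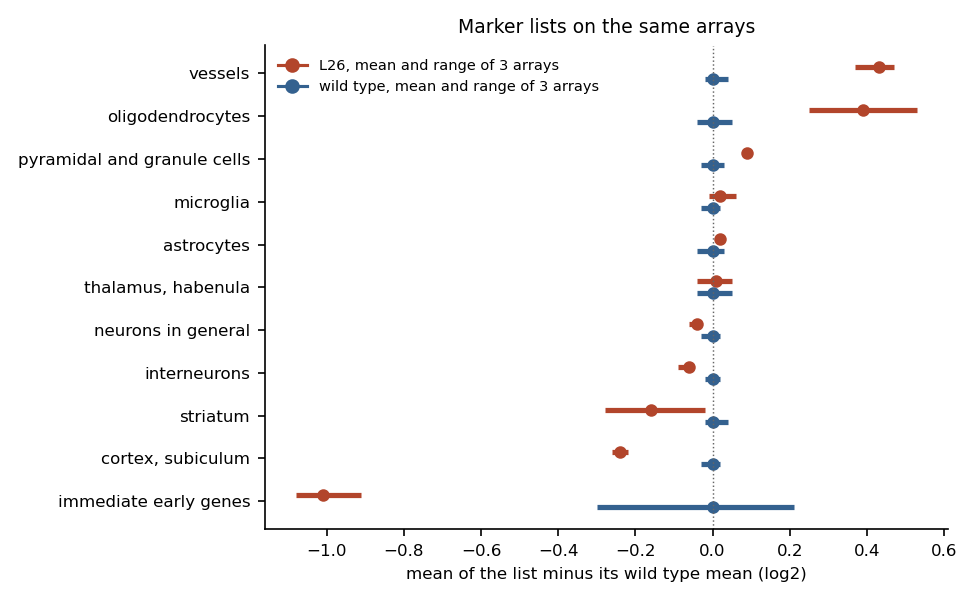
Mean log2 expression of each marker list on the same 6 arrays, set to 0 at its wild type mean, with points for group means and bars for the range of 3 arrays. Immediate early genes lie about 1 unit lower in L26, and vascular and oligodendrocyte markers lie higher.

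The arrays were alike in scale, with medians from 7.27 to 7.32, and correlated at 0.9971 to 0.9979 within and 0.9944 to 0.9958 between groups. Markers of hippocampal pyramidal cells gave signals above the upper quartile, with Neurod6 at 12.3 in L26 and 12.06 in wild type, Wfs1 at 10.96 in L26 and 11.06 in wild type and Slc17a7 at 10.98 in L26 and 11 in wild type. The 2 probe sets of Kcnip3 averaged 10.15 and 9.20 in L26 and 10.32 and 9.52 in wild type, differences of -0.17 (limma adjusted p = 0.208 over probe sets) and -0.32 (limma adjusted p = 0.0393 over probe sets). It is not known here whether they cover the transgene, so they check no label. None of the 35 neuropeptide system genes had a mean below the lower quartile of all probe sets (5.95), and 14 lay above the upper quartile (9.06).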

How the data were processed

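Log2 expression values of 6 hippocampal samples, 3 from L26 and 3 from wild type mice, were analysed as deposited. Per the submitters' processing notes the authors made these log2 values with RMA and affy (versions not given in the sources used here). In its usual form RMA corrects background, applies quantile normalization to the probes and reduces them to 1 value per probe set, which shrinks differences of dim transcripts. The values are rounded to 2 decimals and carry no detection calls. Precision is limited by the number of arrays.

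Of 45101 probe sets, 64 array controls were left out. Platform annotation gave 1 symbol to 34945 of the other 45037, several to 932 and none to 9160. A gene took the probe set with 1 symbol and the highest mean over the 6 arrays, which left 18193 genes. No filter on level was applied. The comparison of L26 minus wild type used limma 3.58.1 (R 4.3.3; lmFit, then eBayes; two-sided), with Benjamini-Hochberg adjustment over genes, or over probe sets where said, and a threshold of 0.05. Within-array ratios were tested by exact two-sided permutation, which with 3 arrays against 3 cannot go below 0.1. Standard errors and 95% intervals come from limma. The code was tested on simulated data.

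The genes and lists were chosen with earlier results of these data known. All 35 tested genes are accounted for. Values in every array are given for each gene past the threshold, each whose groups do not overlap and the one with the highest level of each role, and, of the further peptide genes, for those past the threshold. The alternatives tried were a threshold of 0.1, averaging every probe set of a gene, dropping those named _x_at or _s_at, a robust prior with an intensity trend, dropping the dimmest 40%, centring on array medians, a second quantile normalization, leaving out single arrays, and a replicate block. For the further peptide genes (except for the dim filter) and for single probe sets they were added after seeing the data.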

Additional observations from a re-analysis of the deposited data

How the results depend on the processing

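Cckbr and Pcsk1 passed in all 13 alternatives that gave a difference, and Cort and Npy2r in 12 of 13 each. Tac1 passed in 5 and Sstr1 in 6. Of the genes that missed the threshold, Npy1r passed in 4 (adjusted p from 0.0349 to 0.471 over the 13), Crhr1 in 3 (0.0232 to 0.177), and Grp, Trh and Sstr4 in 1 each. Leaving out 1 array each, 3 to 5 of the 35 genes passed, where 401 to 696 of all genes (2.2% to 3.83%) did. Among them were 0 to 2 peptide precursors, 1 granin or processing gene and 1 to 3 receptors. In the same fits 0 to 3 of the 92 further peptide genes and 3 to 6 of the 51 probe sets passed. The numbers of genes past the threshold without L26 replicate 2 and without L26 replicate 3 were 3 each. With a replicate block 4 of the 35 passed (Cckbr, Cort, Npy2r and Pcsk1), among them 1 of 12 peptide precursors, and 635 of all genes (3.49%). Deviations of same-numbered samples from their group means correlated at 0.0288, -0.0926 and 0.164. The highest value, 0.178, was that of L26 replicate 2 with wild type replicate 1. With 3 arrays a group these correlations cannot settle whether replicate numbers pair the samples. The fit with a replicate block is therefore given as an alternative only. At a threshold of 0.1, 1734 genes (9.53%), 5 of 14 receptors and 10 of the 92 further peptide genes passed. Without the dimmest probe sets 5 of 13 receptors and 5 of 67 further genes passed, where 8.57% of all genes did. With a trend and robust prior 5 of 14 receptors and 9 of 92 further genes passed, where 7.46% of all genes did. After repeated quantile normalization 4 of 92 further genes passed, where 5.45% of all genes did. With the mean of all probe sets 1 of 12 peptide precursors passed, where 5.3% of all genes did. The difference of Cpe, -0.02, ran from -0.06 to 0.02 with 1 array left out, and changed sign without wild type replicate 1 (0.02), without L26 replicate 3 (0.01) and with the mean of all probe sets (0.10), and never passed. Why these values moved was not tested. Fewer arrays leave fewer degrees of freedom, and the mean of all probe sets gives dim probe sets equal weight.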

Other observations

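Genes that lie next to the 6 that passed were looked at, 5 tested genes on each side in RefSeq order. Of the 10 neighbours, none passed for Cort, Tac1, Pcsk1, Sstr1 and Cckbr in limma, with differences between -0.21 and 0.26 over the 5 regions. Beside Npy2r, 1 of 10 passed, Tdo2, a tryptophan dioxygenase gene, which rose by 0.33 (SE 0.07, adjusted p = 0.0329). Over all genes 5.19% passed.

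Ligand genes outside the list were added after their values were seen, because they bind the receptors described above. Sst, the somatostatin gene, had 12.16, 12.14 and 12.16 in L26 and 11.90, 11.90 and 12.06 in wild type, a difference of 0.20 (SE 0.06, adjusted p = 0.0933) that did not pass. It had the sign of Cort, Sstr1 and Sstr4, with no overlap of the groups. Npy, the neuropeptide Y gene, had 11.00, 10.95 and 11.02 in L26 and 11.13, 11.15 and 11.17 in wild type, a difference of -0.16 (SE 0.05, adjusted p = 0.106), opposite in sign to Npy2r and the same as Npy1r. Vip had a difference of 0.03 (interval -0.11 to 0.18).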
